A study of Mus musculus with 12 samples.

Results

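Among the accessible regions that wild-type (WT) and Runx1 knockout (Runx1KO, KO) C2C12 myoblasts shared in growth medium, 1474 had a lower enrichment in KO than the typical shared region. The regions came from ATAC-seq peak lists, in which the authors gave each peak a fold enrichment, the height of the peak over its local background. Of the 24800 rows of the shared list, 24065 (97.0%) overlapped exactly 1 peak of the KO list, and were its only partner, with an overlap of at least 1 bp. The other 735 rows had 2 or more partners on either side and were left out. For each pair, the log2 ratio of KO to WT enrichment was computed and the median over all pairs, −0.20, was subtracted. Pairs with a centred ratio of −0.5 or lower were kept as members. They made up 6.13% of the pairs, and on the other side 1923 pairs (7.99%) had a centred ratio of 0.5 or higher. The members were thus selected on their enrichment in these same libraries, and their lower enrichment in KO is a description and no finding.

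The series has 12 ATAC-seq samples, 3 for each genotype and medium: growth medium (20% FBS, day 0) and differentiation medium (day 2). The groups used here were WT C2C12 cells and Runx1KO C2C12 cells in growth medium, near confluency, and the day 2 samples were not analysed here. Peak names point to replicate 1 of each genotype throughout, so each value below comes from 1 WT library and 1 KO library, as far as the names show, with no replicate error and no test between the genotypes. Whether replicates 2 and 3 entered the selection of the peaks is not stated. The labels do not give the edit that made the knockout, nor whether the KO cells are 1 clone.

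C2C12 is an established mouse myoblast line, whose cells divide while serum is plentiful and form multinucleate myotubes once it is lowered. The transposase of ATAC-seq, Tn5, inserts its adapters where DNA is free of nucleosomes, so promoters and enhancers in use stand out as peaks. RUNX1 binds DNA as a heterodimer with CBFB, at sites with the core letters TGTGGT, and often works beside ETS and AP-1 factors at enhancers. In muscle it is known for its role in myoblast proliferation and regeneration.

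Peaks were present at gene ends of 3 of 8 myoblast markers in both libraries. These were Myod1 (the master regulator of the myogenic lineage), Des (desmin) and Chrna1 (a subunit of the acetylcholine receptor of muscle). Myf5, Cdh15, Itga7, Vcam1 and Pax7 had no listed peak within 1 kb of an end in either library. No listed peak lay there in 4 of 4 fibroblast markers or 3 of 3 epithelial markers, while 1 of 4 blood markers (Spi1), 1 of 3 neuron markers (Syt1) and the adipocyte marker Cebpa had one in both libraries and Pparg, a second adipocyte marker, in WT alone. No member lay at an end of any of these 25 marker genes. The Runx1 gene (chr16:92601466-92826074) had 12 pairs in it or within 10 kb, of which 0 were members and 2 were higher in KO. It also had 7 peaks listed as specific to WT and 0 specific to KO, which are outside the shared list. Over all pairs, a WT-specific peak lay within 10 kb of 16.8% and a KO-specific peak within 10 kb of 4.05%. Accessibility at Runx1 does not check the knockout, since an edited gene can remain open.

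Sequence could be read where a member covered a promoter window of RefSeq (build GRCm38.p6), which runs from 250 bases before to 50 bases after a gene's start. Of 32817 windows, 294 overlapped 1 of 234 members and 106 lay wholly inside a member. Capitals mark matches, on either strand, to the core letters of 9 motifs: RUNX (TGTGGT, and TGCGGT as a second form), AP-1 (TGANTCA), ETS (CCGGAA), an E-box (CAGCTG), TEAD (ACATTCC), SP and KLF (GGGCGG), NFY (CCAAT) and CRE (TGACGTCA). The 3 windows wholly inside the members with the lowest ratios are those of Ago1 (an argonaute protein that binds small RNAs), Mybbp1a (a nucleolar MYB-binding protein) and Uba1 (the enzyme that activates ubiquitin). They show what a member at a promoter looks like and hold no RUNX letters.
Ago1, chr4:126468534-126468833, minus strand: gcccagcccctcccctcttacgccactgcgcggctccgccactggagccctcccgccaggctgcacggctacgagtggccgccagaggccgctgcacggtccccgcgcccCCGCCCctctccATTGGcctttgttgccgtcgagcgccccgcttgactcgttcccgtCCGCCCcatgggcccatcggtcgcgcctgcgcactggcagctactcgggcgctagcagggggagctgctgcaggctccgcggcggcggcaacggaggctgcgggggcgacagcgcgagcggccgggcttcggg
Mybbp1a, chr11:72441077-72441376, plus strand: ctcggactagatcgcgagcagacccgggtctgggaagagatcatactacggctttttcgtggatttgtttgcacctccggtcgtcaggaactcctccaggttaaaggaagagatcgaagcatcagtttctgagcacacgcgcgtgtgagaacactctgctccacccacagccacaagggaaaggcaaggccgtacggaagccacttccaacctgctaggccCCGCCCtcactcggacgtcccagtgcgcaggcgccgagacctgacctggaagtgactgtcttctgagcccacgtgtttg
Uba1, chrX:20658254-20658553, plus strand: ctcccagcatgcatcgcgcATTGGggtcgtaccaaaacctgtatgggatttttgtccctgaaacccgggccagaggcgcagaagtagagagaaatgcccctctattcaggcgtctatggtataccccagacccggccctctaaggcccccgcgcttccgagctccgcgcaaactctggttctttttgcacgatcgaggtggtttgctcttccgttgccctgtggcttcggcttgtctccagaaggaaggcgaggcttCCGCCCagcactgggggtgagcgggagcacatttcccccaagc

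The next windows were picked after the values were seen, since they hold the letters that RUNX1 itself reads. They belong to Fubp3 (a protein that binds single-stranded DNA) and to 2 predicted genes, and each also lies wholly inside a member. The RUNX letters start at base 60 in Fubp3 (minus strand of the window), at base 136 in Gm38983 and at base 157 in Gm10516, counted from 1 at the 5′ end.
Fubp3, chr2:31572401-31572700, plus strand: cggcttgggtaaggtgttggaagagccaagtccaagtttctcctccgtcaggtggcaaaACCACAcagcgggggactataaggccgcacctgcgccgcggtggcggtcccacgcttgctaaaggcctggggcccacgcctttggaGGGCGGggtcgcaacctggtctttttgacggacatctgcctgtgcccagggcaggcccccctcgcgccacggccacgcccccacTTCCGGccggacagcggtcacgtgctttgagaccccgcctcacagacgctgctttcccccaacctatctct
Gm38983, chr7:29768204-29768503, minus strand: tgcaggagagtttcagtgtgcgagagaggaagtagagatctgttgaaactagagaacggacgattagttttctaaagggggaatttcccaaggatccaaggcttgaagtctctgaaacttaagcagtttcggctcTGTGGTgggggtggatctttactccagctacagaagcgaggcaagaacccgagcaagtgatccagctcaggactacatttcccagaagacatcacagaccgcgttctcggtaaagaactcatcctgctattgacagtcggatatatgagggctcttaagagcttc
Gm10516, chr1:192136648-192136947, plus strand: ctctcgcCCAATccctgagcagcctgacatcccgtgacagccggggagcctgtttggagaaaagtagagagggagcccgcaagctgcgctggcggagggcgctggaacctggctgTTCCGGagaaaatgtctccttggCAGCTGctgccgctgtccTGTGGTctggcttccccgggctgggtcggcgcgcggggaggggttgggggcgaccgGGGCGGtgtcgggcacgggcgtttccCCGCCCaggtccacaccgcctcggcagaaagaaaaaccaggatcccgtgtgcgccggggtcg

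Of the genes on the fixed lists, 3 had a window that overlapped a member: that of Runx3 lies inside its member and those of Cbfb and Rpl10 lie partly in theirs. The windows of Cbfb and Rpl10 were picked after the values were seen. Runx3 is a paralogue of Runx1, Cbfb encodes the partner subunit of all RUNX factors, and Rpl10 encodes a protein of the large ribosomal subunit. The Runx3 window holds the RUNX letters at bases 117 and 125. The Cbfb window holds 4 GGGCGG boxes and no RUNX letters.
Runx3, chr4:135120395-135120694, plus strand: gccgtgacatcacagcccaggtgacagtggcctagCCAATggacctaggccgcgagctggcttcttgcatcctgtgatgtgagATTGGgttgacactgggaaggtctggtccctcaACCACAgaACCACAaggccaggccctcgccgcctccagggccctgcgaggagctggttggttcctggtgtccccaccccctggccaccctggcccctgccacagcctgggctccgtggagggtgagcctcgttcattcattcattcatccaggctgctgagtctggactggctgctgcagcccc
Cbfb, chr8:105170424-105170723, plus strand: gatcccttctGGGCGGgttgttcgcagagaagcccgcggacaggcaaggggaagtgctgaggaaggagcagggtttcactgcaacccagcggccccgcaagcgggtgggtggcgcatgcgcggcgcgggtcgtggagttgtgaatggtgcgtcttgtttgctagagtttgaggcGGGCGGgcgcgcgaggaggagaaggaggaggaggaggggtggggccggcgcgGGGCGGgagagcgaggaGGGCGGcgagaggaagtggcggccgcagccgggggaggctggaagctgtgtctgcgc
Rpl10, chrX:74270566-74270865, plus strand: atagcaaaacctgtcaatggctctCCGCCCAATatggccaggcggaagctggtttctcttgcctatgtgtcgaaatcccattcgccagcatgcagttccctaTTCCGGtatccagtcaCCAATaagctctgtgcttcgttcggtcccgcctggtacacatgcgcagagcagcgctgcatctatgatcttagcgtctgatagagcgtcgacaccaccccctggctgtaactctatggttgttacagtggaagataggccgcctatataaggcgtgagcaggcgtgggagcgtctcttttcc

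The members at these windows were of medium to high rank in WT and of lower rank in KO. At Ago1 the enrichment was 12.9 in WT and 6.01 in KO, and at Runx3 it was 16.9 and 10.1. Across all windows, the RUNX letters TGTGGT were in 45 of 294 windows at a member (15.3%, 95% Wilson interval 11.6 to 19.9), in 13.8% at a pair higher in KO (10.8 to 17.5), in 12% at another pair (11.3 to 12.7) and in 16.8% of all windows. The interval of the members held the share of the pairs higher in KO and the share at other pairs. The ETS letters CCGGAA were in 31.0% of the windows at members (25.9 to 36.5), 33.6% at other pairs and 14.9% of all windows. GGGCGG boxes were in 66.7%, 69.8% and 35.6%, and CCAAT in 39.8%, 42.7% and 37.4% of the same 3 sets. For TGANTCA the shares were 4.76%, 5.01% and 7.81%, for the second RUNX form TGCGGT 11.2%, 10.5% and 6.45%, and for the E-box CAGCTG 13.9%, 14.4% and 16.3%. ACATTCC was in 2.72%, 2.45% and 3.85%, and TGACGTCA in 2.38%, 3.90% and 1.79%. For each of the 9 motifs the share at other pairs lay within the members' interval. At pairs higher in KO, CCAAT was in 31.0% of the windows (26.7 to 35.7), where the members' interval was 34.4 to 45.5. TGACGTCA was in 4.93% (3.21 to 7.49), where the members' interval was 1.16 to 4.83. The intervals of both sets overlapped for both motifs. Some members overlap more than 1 window, and the intervals take windows as independent. The share of all windows lay outside the members' interval for the ETS letters, the SP and KLF letters and the second RUNX form, and inside it for the other 6 motifs. The median GC content was 61.3% at members, 62.3% at other pairs and 52.7% in all windows. These windows cover only members at promoters, and the letters of the other members were not read, since no genome came with the files.

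The members' deposited enrichment had a median of 11.9 in WT (lowest 4.66, highest 26.6) and of 6.32 in KO (lowest 2.78, highest 16.3). The other pairs, those between both thresholds, had medians of 10.8 in WT and 9.39 in KO. In the WT list the members' median rank was the 72.3 percentile of enrichment, against 62.6 for all pairs. In the KO list their KO peaks stood at the 19.2 percentile, against 54.2 for all pairs. The median centred log2 ratio of the members was −0.63. It was −0.75 or lower in 382 of them and −1 or lower in 93, and the lowest was −1.80. Most members therefore lay close to the threshold. The 5 members just inside it had centred ratios of −0.5002 to −0.5006 and KO to WT pileup ratios of 0.636 to 0.818. The 5 pairs just outside it had centred ratios of −0.4987 to −0.4999 and pileup ratios of 0.478 to 0.75, so the edge of the set separated regions with overlapping values.

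**Figure D1:**
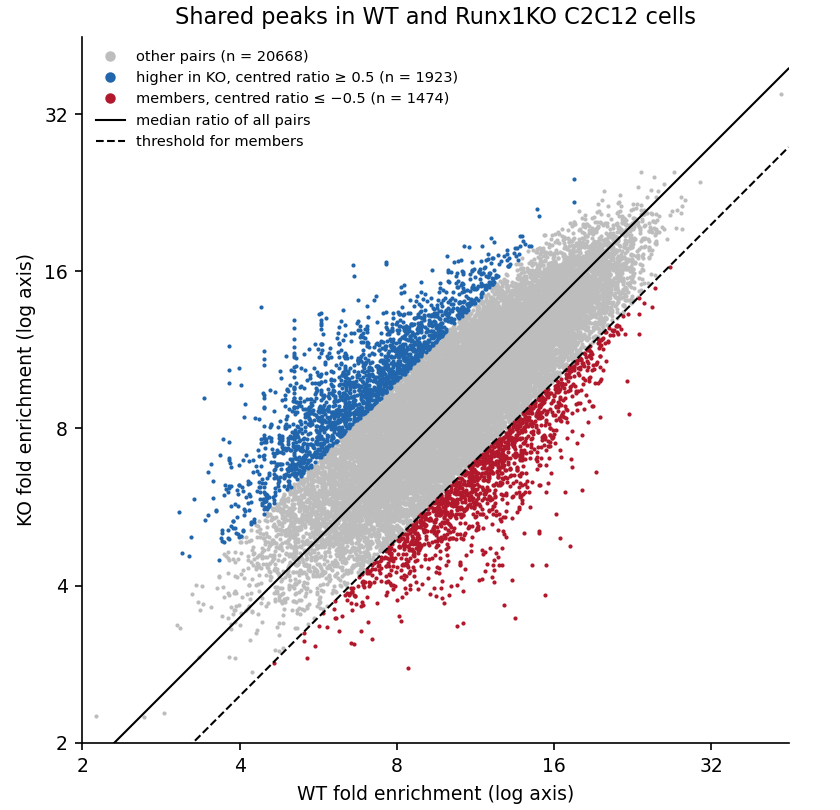
Fold enrichment of each of the 24065 shared pairs in the WT library (x axis, log scale) and in the KO library (y axis, log scale). The solid line is the median ratio of all pairs and the dashed line the threshold that chose the 1474 members (red), which form the lower edge of 1 continuous cloud whose upper edge holds the 1923 pairs higher in KO (blue).

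The enrichment is a ratio of peak to background, and both parts could be read from the deposited values. The deposited fold and −log10 p of all 34118 WT peaks and all 27187 KO peaks were matched by a whole-number pileup and a background, with fold equal to the pileup plus 1 over the background plus 1, and p the Poisson probability of a count above the pileup. The relative misfit was at most 1e-05. The pileup is the coverage at the summit, and whether it counts reads, fragments or cut sites is not given in the sources used here. Over all pairs the median KO to WT pileup ratio was 1, while the median background ratio was 1.24 and the lowest background in each list was 0.571 in WT and 0.823 in KO. The centring removes this general shift.

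Pileup and background of the members were as follows. The median pileup was 31 in WT (10 to 147) and 17 in KO (6 to 113), against 29 and 29 in the other pairs. Their background was 1.63 in WT and 1.78 in KO, against 1.73 and 2.16 in the other pairs. The pileup was lower in KO in 1474 of 1474 members, by a median KO to WT ratio of 0.579. On the log2 scale, the pileup term of the members' ratio had a median of −0.75, and the background term a median of 0.09, below the 0.20 of all pairs. This background term, with 1 added to each background as in the fold, was above its median over all pairs in 391 members (26.5%). At the median, the members' pileup term was thus below the 0 of all pairs, and so was the background term, which is subtracted. Both terms are parts of the ratio that selected the members, so these values only describe them. What lay behind the lower pileup was not tested.

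The members' peaks were also narrower in KO. The WT interval had a median width of 409 bp and the KO interval 348 bp, and the median ratio of KO to WT width was 0.877, against 1.01 over all pairs. The KO interval was the narrower one in 68.7% of members (66.2 to 71.0), 47.4% of all pairs and 26.9% of pairs higher in KO. The interval comes from the same peak call as the enrichment, so this is no separate support. Both summits lay within 100 bp in 86.0% of members (84.1 to 87.6), in 86.2% of the pairs higher in KO and in 88.7% of the other pairs, so the share in members was slightly below that of the other pairs.

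With 1 library per genotype, counting error was the error that could be computed. For each pair, an exact (Clopper-Pearson) 95% interval of the KO to WT pileup ratio was taken from both pileups, without adjustment for the number of pairs. These intervals cover counting error only, since duplicate fragments and differences between cultures add to it. The interval lay wholly below 1 in 883 pairs (3.67%) and wholly above 1 in 710 (2.95%). Among the members it lay below 1 in 579 (39.3%) and held 1 in 895 (60.7%). The rule used these pileups, so nothing is read from the members' share. It means that for 895 members a KO pileup equal to the WT pileup lay within counting error.

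Over all pairs, the log2 pileup ratio had an SD of 0.436 and a robust SD (from the median absolute deviation) of 0.390, and counting error of both pileups alone gave 0.412. The ratio had 1 added to each pileup, as in the fold, and the counting error did not. This narrows the spread of the ratio, most at low pileups, so the comparison is rough there. The pairs were divided into 10 equal bins by summed pileup. In the highest bin (median 139) the robust SD and the counting error were 0.254 and 0.241, and in the lowest (median 26) they were 0.488 and 0.595. The robust SD was above the counting error in 7 of the 10 bins, by 0.027 or less, and below it in 3. It gives little weight to the tails, where the members lie. The ordinary SD was above the counting error in all bins but the lowest, with 0.274 in the highest bin and 0.490 in the lowest. The members' share moved with the pileup: it was 7.27% of pairs in the lowest bin, 8.27% in the third and 2.33% in the highest. The share of pairs higher in KO fell from 16.7% to 0.374% over the same bins. Deeply covered regions were thus rare in the members, and rarer still among the pairs higher in KO. How much of the membership comes from counting was not tested beyond these values.

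**Figure D2:**
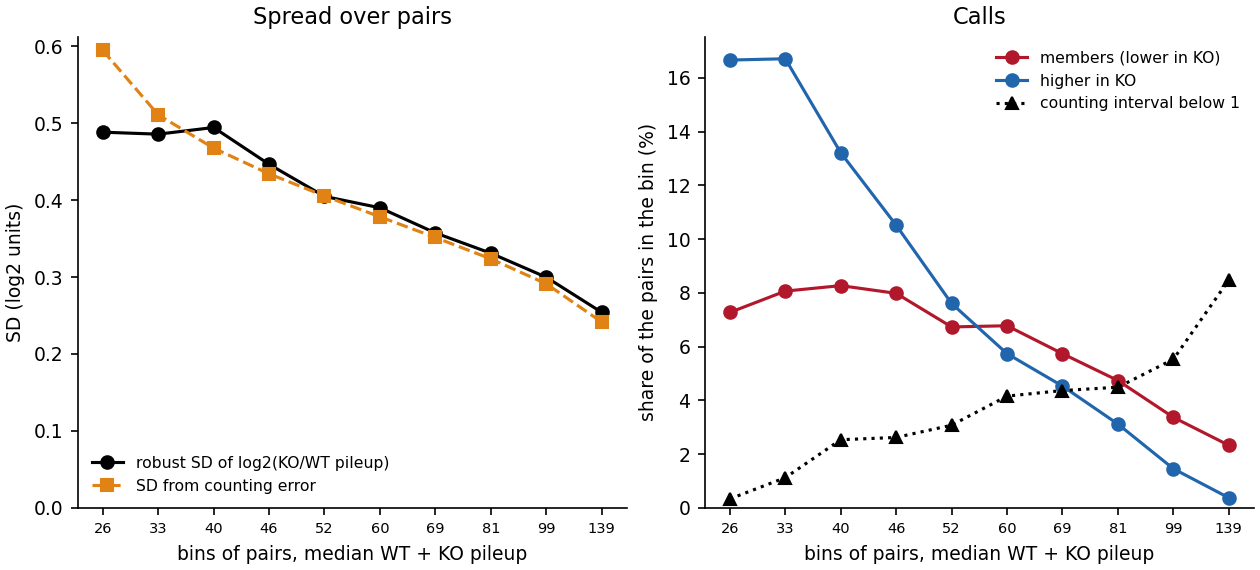
Left, the robust SD of the log2 KO to WT pileup ratio with 1 added to each pileup (black) and the SD that counting error gives without it (orange). The pairs are in 10 equal bins ordered by WT plus KO pileup (x axis, median per bin). Right, the share of each bin that was a member (7.27% in the lowest, 2.33% in the highest), higher in KO, or had a counting interval below 1 (0.332% to 8.48%).

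The 10 members with the lowest centred ratios lay away from the ends of protein-coding genes, at distances of 10.7 to 743 kb. The lowest, at chr17:14036938-14037274 between genes, had a pileup of 26 in WT and 6 in KO, with a ratio of 0.231 (0.078 to 0.573). The second lay in Prkar1b (a regulatory subunit of protein kinase A; chr5:139099491-139100008), with pileups of 32 and 8. The third lay between genes 20.9 kb from Slc25a30 (a mitochondrial carrier; chr14:75807747-75808133), with pileups of 42 and 11. In these 3 the KO pileup was 0.231 to 0.262 times the WT pileup, and the upper end of the counting interval was at most 0.573. Others of the 10 lay in Clstn1 (calsyntenin, a membrane protein that binds kinesin; 30 in WT, 7 in KO), in Sh3pxd2a (the podosome scaffold TKS5; 38 and 12), and 58.7 kb from Foxc1 (a forkhead factor; chr13:31747608-31748323; 36 and 7). The member nearest to Adgrl2, 743 kb from it on chromosome 3, had pileups of 33 and 8. The upper end of the counting interval lay between 0.443 and 0.938, which describes regions picked as the lowest of 24065 and supports nothing. The KO −log10 q of these 10 ran from 1.61 to 4.58, against a median of 17.6 over the KO list, so each was among its weaker peaks.

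The members with the highest WT −log10 q were all on chromosome 8. They lay in Inpp4b (a phosphoinositide phosphatase; chr8:81867027-81867342), 1.72 kb from Asb5 (a SOCS box protein of muscle; chr8:54548274-54548948), in Mylk3 (a myosin light chain kinase of striated muscle; chr8:85380432-85381259), in Rnaseh2a (the catalytic subunit of RNase H2; chr8:84965773-84966290) and in Dok4 (a docking protein of receptor kinases; chr8:94870485-94871322). Mylk3 had a pileup of 136 in WT and 55 in KO, with a ratio of 0.404 (0.290 to 0.557). Dok4 had 134 and 57, with a ratio of 0.425 (0.306 to 0.584), and Rnaseh2a 145 and 91, with a ratio of 0.628 (0.477 to 0.821). Inpp4b, with 147 and 113, had an interval that ended at 0.989, and at Asb5, with 137 and 109, the interval held 1. The KO pileup was thus lowest relative to WT at Mylk3 and Dok4 and highest at Inpp4b and Asb5.

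Coverage on a stretch of chromosome 8 was high in both libraries. Between 80 and 95 Mb the 315 pairs had a median background of 4.17 in WT and 5.22 in KO, against 1.67 and 2.09 over all pairs, and a median pileup of 53 and 54, against 28 and 28. The stretch was picked after the values were seen. It held 5 of the 10 members with a WT pileup of 100 or more. Its own members were 24 of 315 pairs (7.62%, 5.17 to 11.1), against 6.23% on the rest of chromosome 8. High coverage there was therefore common to both genotypes, while the members' share was close to that of the chromosome.

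At the ends of protein-coding genes, the lowest centred ratio was at 4930564D02Rik on chromosome 3, with a pileup of 22 in WT and 10 in KO. Its interval (0.192 to 1.0003) just held 1, and the interval lay below 1 in 6 of the 10 lowest at such ends. Rwdd2b (an RWD domain protein; chr16:87440260-87440619) had 25 and 10, with a ratio of 0.4 (0.171 to 0.862). Tmbim4 (a Golgi protein of the BAX inhibitor family; chr10:120208632-120208901) had 37 and 15, with a ratio of 0.405 (0.207 to 0.757). At Hipk1 (a homeodomain-interacting kinase; chr3:103791266-103791685) the pileups were 33 and 15, and at Ago1 33 and 18. The remaining gene ends of the 10 lowest were those of Rbm12b2, Dnajc22, Marveld1, Cdiptos and Nab1 (a corepressor of EGR factors). The centred ratios of these 10 ran from −1.14 to −0.88, weaker than those of the 10 lowest members anywhere.

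**Figure D3:**
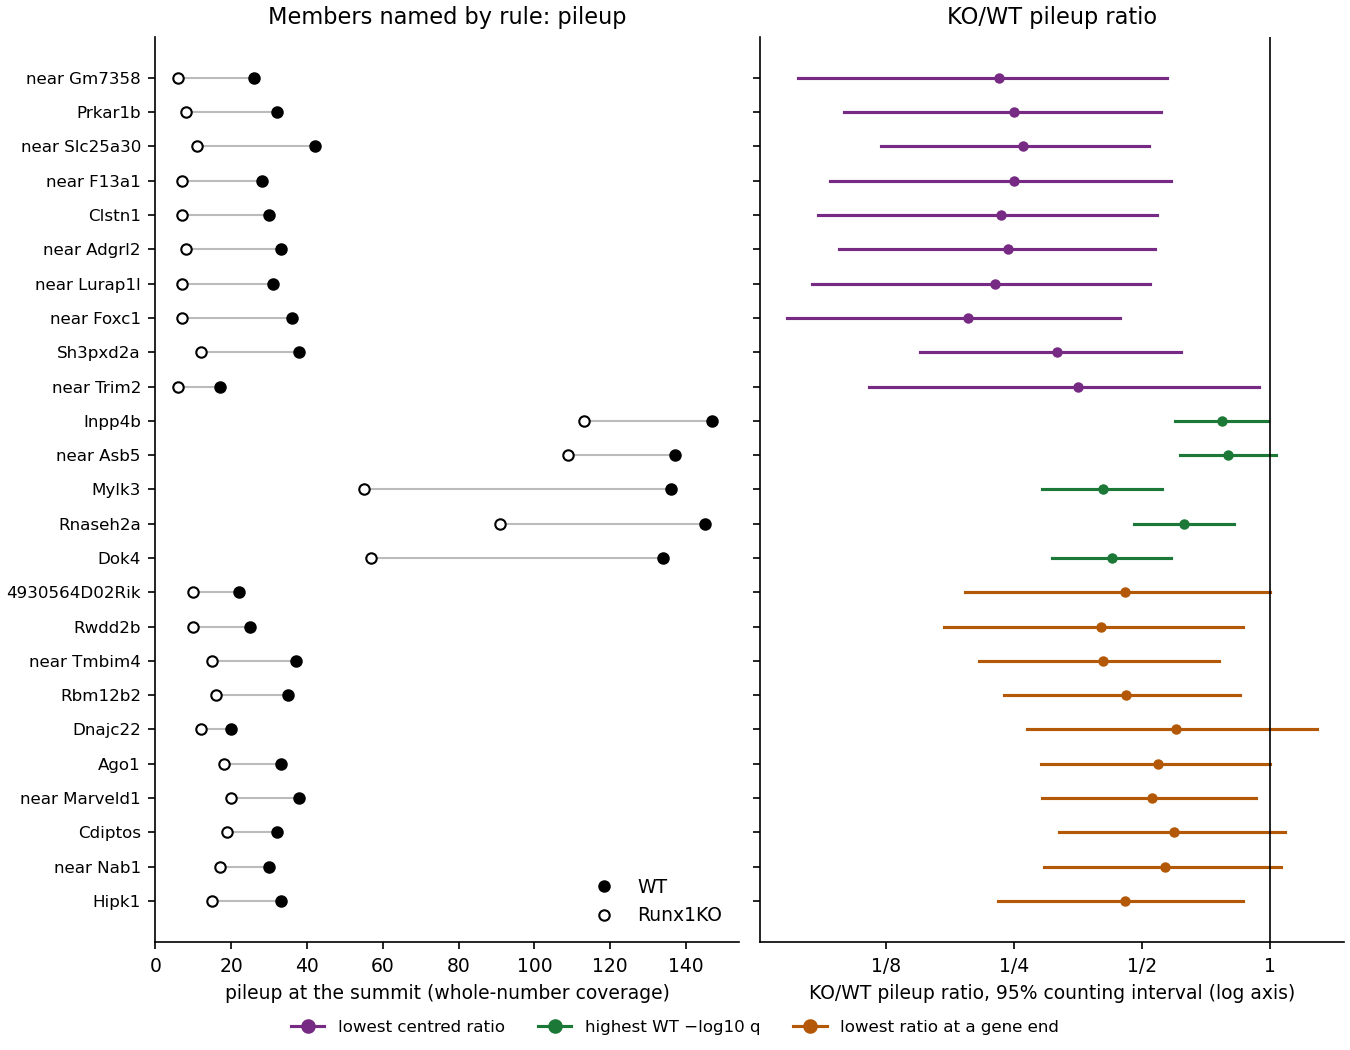
Left, pileup at the summit in WT (filled) and KO (open) for the 10 members with the lowest centred ratio, the 5 with the highest WT −log10 q and the 10 lowest at an end of a protein-coding gene, named by the gene they lie in or near. Right, the KO to WT pileup ratio with its 95% counting interval (log axis), which is widest where the pileup is low and lies below 1 at Mylk3 (0.290 to 0.557) but not at Asb5 (0.613 to 1.03).

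Position in the genome was not part of the rule. In 345 members the WT interval was centred within 1 kb of a gene end (23.4%, 21.3 to 25.6), against 34.7% of all pairs. It lay elsewhere in a gene in 733 (49.7%, 47.2 to 52.3), against 41.4%, and between genes in 396 (26.9%, 24.7 to 29.2), against 23.9%. The pairs higher in KO had 22.4%, 46.7% and 30.8% in the same order. Members and pairs higher in KO were therefore both less often at gene ends than all pairs were. These intervals take peaks as the units and describe the lists, not the genotypes.

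The lower share at gene ends was seen at each level of pileup, a division made after the values were seen. In the lowest of 5 equal bins of summed pileup, 5.37% of pairs at gene ends were members (4.24 to 6.78), 8.25% of those elsewhere in genes and 8.76% of those between genes. In the highest bin the shares were 2.32% (1.76 to 3.05), 3.41% and 3.00%. The intervals of the gene ends and of the gene bodies were apart in the 4 lower bins and overlapped in the highest. The spread of the ratio differed by position too. The robust SD of the log2 pileup ratio, with 1 added to each pileup, was 0.329 at gene ends, where counting error without it gave 0.390. Elsewhere in genes the values were 0.425 and 0.418. Ratios at gene ends were thus held closer together on both sides.

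**Figure D4:**
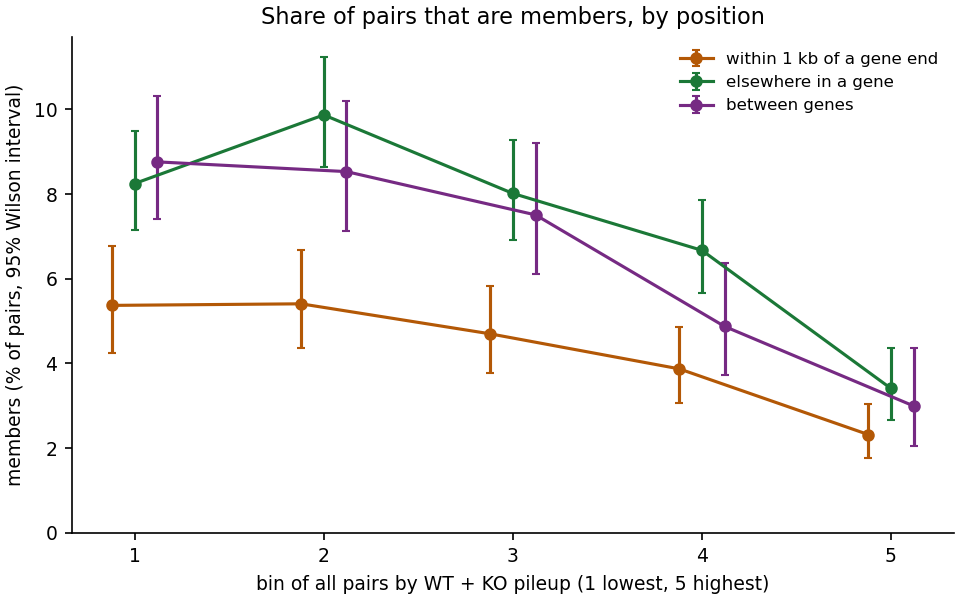
Share of pairs that were members (y axis, with 95% Wilson intervals) in 5 equal bins of all pairs by WT plus KO pileup (x axis), for pairs within 1 kb of a gene end, elsewhere in a gene and between genes. Gene ends have the lowest share in each bin, from 5.37% in the lowest to 2.32% in the highest.

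Peaks of the list specific to WT lay within 10 kb of members about as often as of any pair. A peak specific to WT lay within 10 kb of 17.1% of members (15.3 to 19.1) and of 16.8% of all pairs. A KO-specific peak lay that near in 4.21% of members and 4.05% of all pairs. The median distance to the nearest WT-specific peak was 37.8 kb for members, 43.5 kb for all pairs and 58.9 kb for the pairs higher in KO. Within 50 kb, 58.4% of members and 54.1% of all pairs had a WT-specific peak. Among pairs whose peaks both reached the median −log10 q of their list, the shares within 10 kb were 19.8% and 16.4%. The nearest neighbouring pair was itself a member for 3.56% of members where it lay within 10 kb (19 of 534, interval 2.29 to 5.49), against 5.90% of all pairs at that distance. At 10 to 50 kb the share was 8.21% (6.38 to 10.5), against 6.14%, and beyond 50 kb it was 7.75% (5.07 to 11.7), against 5.66%. Within 10 kb the neighbour was higher in KO for 10.1% of members, against 6.92% of all pairs. The members' interval thus lay below the share of all pairs within 10 kb and just above it at 10 to 50 kb. Beyond 50 kb the interval held that share. Neighbouring members can each be the other's nearest pair, and the intervals take them as independent.

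Across chromosomes, the members' share ran from 4.45% of pairs on chromosome 3 to 7.57% on chromosome 14. The window of 1 Mb with the most members was chr4:126000001-127000000, with 7 of 32 pairs, the member at Ago1 among them. It was followed by 4 windows with 6 members, of which chr12:73000001-74000000 and chr5:36000001-37000000 had 6 of 30 pairs each and 2 on chromosome 15 had 6 of 37 and 6 of 40. The median centred ratio of all pairs in these 5 windows was −0.03, −0.06, −0.10, −0.12 and −0.16.

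Members were spread over many genes. A pair was counted at a gene if the middle of its WT interval was inside that gene or at most 10 kb away. Of 12680 protein-coding genes with a pair, 1281 had a member, 105 had 2 or more and 16 had 3 or more. No protein-coding gene lay that near to 408 members. Of the 1281 genes, 179 also had a pair that was higher in KO, so that a gene could carry regions of both kinds. The share of all 12680 genes with a pair higher in KO is not given here, so nothing more is read from this count.

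Sorcs2, a sorting receptor of the VPS10 family, had 5 members among 11 pairs, and 1 pair higher in KO. Its members had pileups of 71 in WT and 33 in KO, 49 and 22, 44 and 28, 29 and 18, and 28 and 10. The strongest, at chr5:36069568-36070340, had a ratio of 0.465 (0.298 to 0.712). The intervals of those with 44 and 28 and with 29 and 18 held 1. All 5 lay inside the gene.

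Fhod3, a formin that takes part in sarcomere assembly in striated muscle, had 5 members among 14 pairs. None of its pairs was higher in KO, beside 7.99% of all pairs. The member at chr18:24751499-24752187 had a pileup of 84 in WT and 35 in KO, a ratio of 0.417 (0.273 to 0.625). The member 12.1 kb from the gene's end had 40 and 19. The other 3 had WT pileups of 21 to 29 and intervals that held 1. The lists also held 6 WT-specific peaks at Fhod3 and 1 KO-specific peak. Among the 10 genes with most members, the WT-specific peaks ran from 0 at Ssh2 to 9 at Nav2 and 10 at Lrmda. Over all pairs, a WT-specific peak lay within 10 kb of 16.8% and a KO-specific peak within 10 kb of 4.05%.

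Nav2, a protein of the microtubule cytoskeleton, had 4 members among 13 pairs and 2 pairs higher in KO. Its strongest member had 52 in WT and 27 in KO, with a ratio of 0.519 (0.314 to 0.842), and the intervals of the other 3 held 1. Ptprf, a receptor tyrosine phosphatase, had 3 members among 4 pairs, with pileups of 37 and 16, 32 and 15, and 32 and 20. The interval of the last held 1. Ssh2, a phosphatase that activates the actin-severing protein cofilin, had 3 members among 4 pairs. The strongest of these lay in the neighbouring Coro6, which encodes a coronin, at chr11:77464641-77465246. It had 93 in WT and 45 in KO, a ratio of 0.484 (0.331 to 0.698). Another lay in the neighbouring Efcab5, with 15 and 10, and its interval held 1. The one inside Ssh2 had 37 and 20, a ratio of 0.541 (0.297 to 0.956).

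Mnat1, the assembly factor of the CDK-activating kinase, had 3 members among 7 pairs. The strongest of them lay in the neighbouring Six4, a homeobox gene of muscle development, at chr12:73110330-73110951, with 47 in WT and 25 in KO, a ratio of 0.532 (0.314 to 0.882). Ttc28 had 3 members among 7 pairs, Arhgap10 3 among 8, and Lrmda 3 among 8. None of these 4 genes, nor Ptprf or Ssh2, had a pair higher in KO, beside 7.99% of all pairs. They had 4 to 8 pairs each and were chosen for their members, so nothing is read from this. Long genes led this list, and 8 of the 10 were longer than 150 kb.

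Smad3, which carries the signal of TGF-beta and activin receptors into the nucleus, was on a fixed list and was 1 of 13 genes with exactly 3 members, among which the share of pairs that were members decided the genes named. It had 3 members among 8 pairs, all in the gene. At chr9:63702533-63702908 the pileup was 42 in WT and 21 in KO, a ratio of 0.500 (0.281 to 0.864). The other members had 57 and 39, and 24 and 13, and both of their intervals held 1. The centred ratios of the 8 pairs ran from −0.84 to 0.38.

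Among the RUNX genes and their cofactors, 4 of 41 pairs were members (9.76%), beside 6.13% over all pairs, and 3 were higher in KO. Cbfb carried 2 members among its 3 pairs. Its promoter member, chr8:105170400-105170687, had a pileup of 41 in WT and 23 in KO, a ratio of 0.561 (0.321 to 0.957). The second Cbfb member, 16.1 kb inside the gene, had 45 and 26, a ratio of 0.578 (0.342 to 0.957). The promoter member of Runx3, chr4:135120325-135120843, had 67 and 38, a ratio of 0.567 (0.371 to 0.857). A member in Tle3, a corepressor that RUNX factors recruit, had 35 and 17. The rule used these pileups, so they are a description. The median centred ratio of the list was −0.01, so the list as a whole stood at the median of all pairs.

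The other lists held 0 to 4 members each, beside 6.13% of all pairs. Myogenic bHLH factors and their partners had 0 of 20 pairs, fusion and adhesion genes 0 of 31, sarcomere genes 0 of 15 and cell cycle genes 0 of 28. Pairs higher in KO numbered 0, 4, 0 and 1 on these 4 lists, 4 on the ETS list and 3 each on the matrix and TGF-beta lists. The TGF-beta list had 4 members among 30 pairs (13.3%), of which 3 were those of Smad3 and 1 lay in the ligand gene Tgfb2, with pileups of 24 and 17. Matrix genes had 4 of 55 (7.27%), in Col1a2, Col4a2, Col5a1 and Col6a3, and the intervals of all 4 held 1. Ribosomal protein genes had 3 of 24 (12.5%), of which those counted at Rpl8 and Rpl32 lay in the neighbouring genes Commd5 and Efcab12. ETS genes had 2 of 37 (5.41%), in Elk3 and Elf2, with centred ratios of −0.51 and −0.50. With counts of 0 to 4, these shares are too coarse to be ranked.

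Single members lay at 3 further regulators. The only pair at Fosl2, an AP-1 subunit, was a member. It lay 0.76 kb from the gene's end (chr5:32135365-32136059), with a pileup of 78 in WT and 43 in KO, a ratio of 0.551 (0.371 to 0.810). A member in Hdac4, a class IIa histone deacetylase that represses MEF2 factors, had 43 and 23, with a ratio of 0.535 (0.308 to 0.908), among 10 pairs at the gene. A member in Tead1, a TEAD factor that binds muscle enhancers, had 18 and 8, with an interval that held 1, among 7 pairs. The median centred ratios of the 12 lists ran from −0.14 for the myogenic bHLH list to 0.04 for the ETS list.

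**Figure D5:**
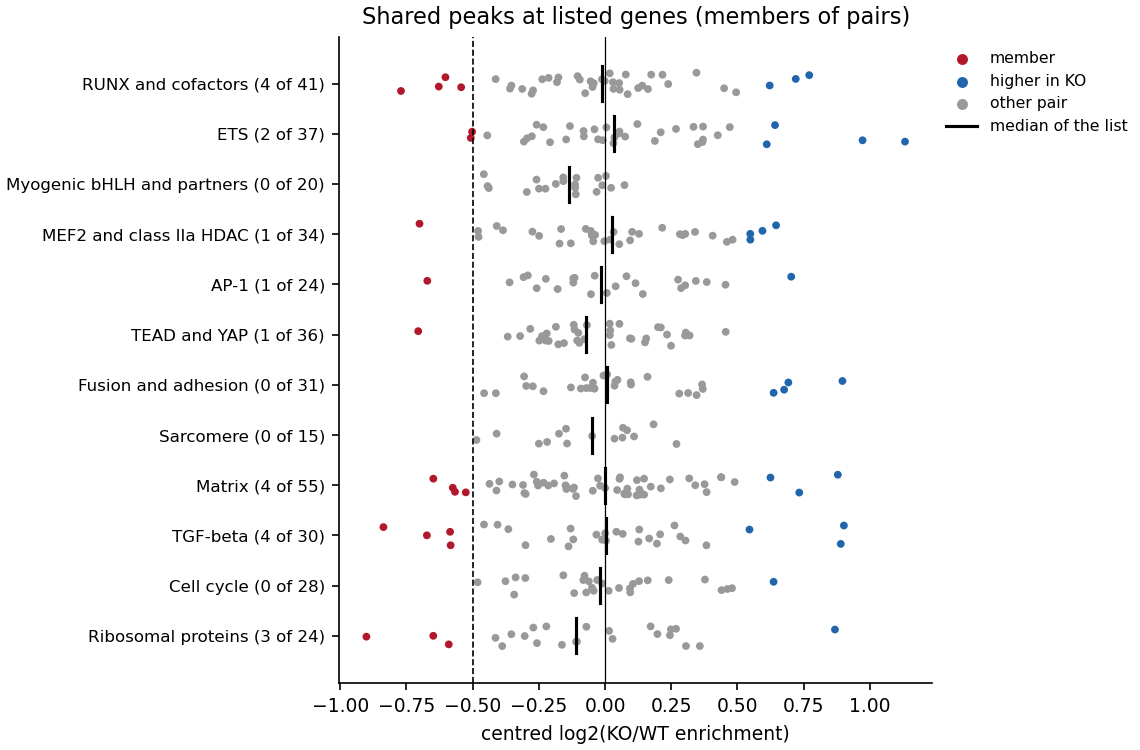
Centred log2 ratio of KO to WT enrichment (x axis) for each pair counted at a gene of 12 lists (rows, with members of pairs in brackets). Red points are members, blue points are pairs higher in KO and black bars are list medians, which lie between −0.14 and 0.04. The dashed line is the threshold.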

How the data were processed

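The deposited values were used as the authors made them: a fold enrichment (a ratio of peak to local background), a −log10 p and a −log10 q for each peak, with no reads or counts, so how deeply each library was sequenced is unknown. The coordinates follow mm10, per the submitters' processing notes, while the aligner, the peak caller and the handling of duplicates are not given in the sources used here. The peak names point to 1 library per genotype, whether other replicates entered the lists is not stated, and p-values between genotypes were not computed. The members and the gene lists were chosen with earlier results of these data known.

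Pairs, medians and shares were computed in Python (3.11.15) with scipy (1.17.1), pandas (2.3.3) and numpy (2.4.6). Pileup and background were solved for each peak from its fold and −log10 p. 2 WT peaks matched 2 whole numbers, and the higher background was taken. Both the solution and the overlaps were tested on simulated data or against bedtools. Shares have 95% Wilson intervals, and the interval of a median runs between order statistics. Genes came from a RefSeq table of GRCm38.p6, which gives no strand, so either end of a gene counts as a gene end. Genes and members were named by fixed criteria: Runx1, the lowest ratios overall and at ends of protein-coding genes, the highest WT −log10 q, the genes and 1 Mb windows with most members, listed genes with a promoter window inside a member, and listed genes with 2 or more members. Other listed genes, Fosl2 and Tle3 among them, were named after their values were seen. Alternatives in threshold, centring, pairing, distance and peak strength were computed.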

Additional observations from a re-analysis of the deposited data

How the results depend on the processing

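Of 56 alternative values of the 8 summaries, 37 moved beyond the interval of the reported value, or beyond 1.5 times for a count, and 3 of 20 gene counts did. The number of members was 2496, 856, 382 and 93 at thresholds of −0.4, −0.6, −0.75 and −1. It was 4045 without centring, 2443 by the pileup ratio, 579 with counting intervals below 1 and 227 with only pairs whose peaks both reach the median −log10 q of their list. Centring on a running median and the other pairings gave 1255 to 1593.

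At a threshold of −1, the shares at gene ends, elsewhere in genes, between genes and near WT-specific peaks were 6.45%, 55.9%, 37.6% and 12.9%. The medians of WT enrichment, WT width and width ratio were then 12.8, 392 bp and 0.678. With strong peaks only, the same values were 33.9%, 46.7%, 19.4%, 19.8%, 17.1, 474 bp and 0.992. Among all strong pairs the shares were 41.2%, 37.9%, 20.9% and 16.4%. The members' share between genes was then no longer above that of all pairs, and the width ratio was near 1. No interval is given for the shares of these 227 members. With counting intervals below 1, the share was 20.0% at gene ends, 52.7% elsewhere in genes and 20.7% near WT-specific peaks. The medians were 13.7, 449 bp and 0.854. By the pileup ratio, WT enrichment was 12.1, WT width 439 bp and the share near WT-specific peaks 19.5%, and with the running median WT enrichment was 11.3. Gene-end distances of 0.5, 2 and 5 kb gave 19.1%, 29.3% and 43.1% of members, against 30.2%, 40.7% and 52.0% of all pairs. Distances of 5 and 50 kb to WT-specific peaks gave 8.21% and 58.4%, against 8.51% and 54.1% of all pairs. Assigned by the nearest gene end, Sorcs2, Fhod3 and Mnat1 kept 3, 2 and 1 members. A share at another distance, or a count at another threshold, is another quantity, so a change there is built in. The cause of the other moves was not tested. The counting interval and pileup alternatives were chosen after seeing the data.

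No paired analysis was possible because the peak names point to 1 library per genotype, and leaving out a replicate was not possible for the same reason. Replicates 2 and 3 were not analysed here. Pileups of 10 to 147 in WT limit the precision of each ratio.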

Other observations

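Ranked by the upper end of the counting interval instead of the enrichment, an order chosen after the values were seen, 4 of the first 10 members were also among the 10 with the lowest enrichment ratios, the region near Foxc1 at rank 3 among them. Of the other 6, a region inside Ghr, the growth hormone receptor gene (chr15:3509174-3509470), had a pileup of 70 in WT and 18 in KO, a ratio of 0.257 (0.144 to 0.437). A region 34.0 kb from Htr7, which encodes a serotonin receptor (chr19:35924176-35924712), had 46 and 10, a ratio of 0.217 (0.098 to 0.437). Both had a lower background in KO than in WT, 1.22 against 2.18 at Ghr and 1.18 against 2.14 near Htr7.

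Regions inside Piezo2 (a mechanically gated ion channel; chr18:63207786-63208236), with 52 in WT and 14 in KO, and Daam2 (a formin of Wnt signalling; chr17:49489177-49489643), with 56 and 16, had ranks 4 and 6 and ratios of 0.269 (0.138 to 0.493) and 0.286 (0.153 to 0.505). A region in Gnb1l (a WD repeat protein; chr16:18543221-18543795) had the highest pileup of the first 10 in this order, 91 in WT and 31 in KO, a ratio of 0.341 (0.219 to 0.517). The pileups selected the members, so these values are a description.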
